A study of Mus musculus with 9 samples.

Results

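The mitochondrial ribosomal protein genes were examined in 9 RNA-seq libraries of b.End3 cells, an immortalized mouse brain endothelial line. They were the 78 of 54532 listed genes whose symbol is Mrpl or Mrps followed by a number and at most 1 letter, and 5 pseudogene rows were left out. The Ctrl group (3 libraries) was labelled as untreated. The Ep1 group (3 libraries) had received porfimer sodium at 300 μg/mL for 90 min and then laser light of 635 nm at 100 mW/cm2 up to a dose of 10 J/cm2, and the Ep2 group (3 libraries) the same with 20 J/cm2. Porfimer sodium is a photosensitizer that makes reactive oxygen species under red light, which is the principle of photodynamic therapy (PDT). All 3 groups came from 1 cell line, whose strain the labels give as C57BL/6, and the time between light and lysis was not given. Whether the controls had been given the drug without light, or light without the drug, was not stated, and no group is labelled as having had only 1 of them, so the parts of drug and light in a difference from Ctrl cannot be told apart. Nothing in the labels says that the 3 libraries of a group came from separate cultures, so the p-values measure the spread between these libraries, which may be technical.

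Mitochondria keep a ribosome of their own, which translates the few membrane proteins of the respiratory chain encoded by mitochondrial DNA. Its ribosomal RNAs come from the mitochondrial genome, whereas every protein of its small and large subunits is encoded in the nucleus, made in the cytosol and imported. Some of these proteins have counterparts in bacterial ribosomes, and others were added in mitochondria. In the mouse gene names, Mrps stands for the small and Mrpl for the large subunit, with a few exceptions. Mrps18a and Mrps30 sit in the large subunit, and Mrps36 is now known as a part of the 2-oxoglutarate dehydrogenase complex.

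The libraries held between 16240688 and 19509225 fragments on genes. Of 20 endothelial markers, 7 passed the filter on low values (Flt1, Egfl7, Eng, Plvap, Mfsd2a, Slc2a1 and Ly6c1), and 4 were at 0 in all libraries (Emcn, Erg, Sox17 and Robo4), while Pecam1 (mean of 0.143 FPKM in Ctrl) and Cdh5 (0.857 FPKM), which define endothelial cells, were under the filter. Keratin mRNAs were abundant, with a mean of 640.2 FPKM for Krt8 in Ctrl, and the summed FPKM of 8 epithelial markers was 1029 to 1081 in Ctrl, 937 to 1041 in Ep1 and 1155 to 1372 in Ep2, where 3 of the 4 tested ones rose. The endothelial sum was 169 to 176 in Ctrl, 165 to 193 in Ep1 and 215 to 237 in Ep2, where 3 of the 7 tested ones rose (Flt1, Plvap and Slc2a1) and 1 fell (Mfsd2a). Both marker sums were thus highest in the Ep2 libraries, in which the mitochondrial ribosomal protein mRNAs were lowest, and their part in these results was not tested. No marker of mural, myeloid or neural cells passed the filter, with sums of at most 1.60 FPKM, and 2 of 6 fibroblast markers did (Col1a1 and Col3a1, summed level of 37.1 to 49.6 FPKM in all libraries).

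The levels of the members were compared on FPKM, the number of fragments per kilobase of gene model scaled to sequencing depth, which takes gene length into account. Of the 78 members, 77 passed the filter, which asked for 3 or more libraries with an FPKM of 1 or higher. The exception was Mrpl53, a large-subunit gene without any fragment in the 9 libraries, which allows up to 0.195 to 0.234 FPKM (3 fragments) and covers counting error only. The gene model of Mrpl53 (chr6:83109040-83109939) lies wholly within a readthrough gene on the same strand. Its reads could have been left unassigned, which was not tested. The median level of the 77 members in Ctrl was 18.0 FPKM, against 7.84 FPKM over all 11727 tested genes. The lowest mean in Ctrl was 3.22 FPKM (Mrpl48, followed by Mrpl33 and Mrps35), and the highest was 87.3 FPKM (Mrpl14, followed by Mrpl12 and Mrps21). This 27.1-fold range is one of mRNA FPKM, not of protein. The lowest genes had long models (8152, 7326 and 8631 bases, in this order) and the highest short ones (949, 1532 and 739 bases). In fragments, Mrpl48 had 483, 540 and 486 in Ctrl, and Mrpl14 had 1567, 1629 and 1561. The part of model length in the range was not tested.

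To show the DNA that lies before these genes, 150 bases are given for 5 members, from 210 to 61 bases before the RefSeq start (GRCm38.p6). They were chosen after the values were seen. Mrpl12, Mrpl42 and Mrpl58 fell in Ep2, while Mrps30 and Mrps33 were among the members with the smallest differences. No other annotated gene covers these stretches. Capitals mark the single match, on either strand, to the letters CGCNTGCG, a loose form of the site of NRF1, a factor known for its part in the transcription of mitochondrial protein genes. Regions and strands are chr11:120484427-120484576 (+) for Mrpl12, chr10:95502010-95502159 (-) for Mrpl42, chr11:115403542-115403691 (+) for Mrpl58, chr13:118387313-118387462 (-) for Mrps30 and chr6:39810997-39811146 (-) for Mrps33.
Mrpl12: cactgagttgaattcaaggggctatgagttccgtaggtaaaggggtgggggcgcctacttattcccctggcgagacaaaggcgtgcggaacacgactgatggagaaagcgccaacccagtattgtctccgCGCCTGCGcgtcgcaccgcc
Mrpl42: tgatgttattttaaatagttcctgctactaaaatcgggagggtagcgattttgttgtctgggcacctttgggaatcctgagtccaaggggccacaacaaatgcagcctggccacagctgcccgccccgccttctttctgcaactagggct
Mrpl58: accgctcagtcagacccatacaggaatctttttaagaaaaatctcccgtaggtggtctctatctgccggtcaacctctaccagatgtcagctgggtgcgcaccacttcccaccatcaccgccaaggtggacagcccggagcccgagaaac
Mrps30: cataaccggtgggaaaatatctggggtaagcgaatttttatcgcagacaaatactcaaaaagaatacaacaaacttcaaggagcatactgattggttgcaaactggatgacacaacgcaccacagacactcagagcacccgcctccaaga
Mrps33: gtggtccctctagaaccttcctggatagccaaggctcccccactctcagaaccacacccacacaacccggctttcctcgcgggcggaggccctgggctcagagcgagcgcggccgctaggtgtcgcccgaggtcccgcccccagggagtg

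The high light dose was compared with the control group first. Mitochondrial ribosomal protein mRNAs were lower in the Ep2 group: 58 of the 77 tested members fell (adjusted p under 0.05, limma), none rose, and 12 of the 58 fell by more than 0.6 on the log2 scale. Over all tested genes, 29.3% fell, 23.9% rose, and past the same fold change 5.87% fell and 3.30% rose, the latter with no member among them. The median log2 fold change, on log2(FPKM + 1), was -0.33 over the members and -0.03 over all tested genes. In 63 of the 77 members, each Ep2 library was under each Ctrl library, a pattern that 32.7% of all tested genes had. The opposite pattern was found in no member and in 27.0% of all tested genes. The mean level of the median member in Ep2 was 77.8% of its level in Ctrl. Fewer cells with these mRNAs and less of them per cell cannot be told apart in such bulk samples. The statement that none rose depends on the setting for 1 gene, Mrps18c, which is described with its paralogues.

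**Figure D1:**
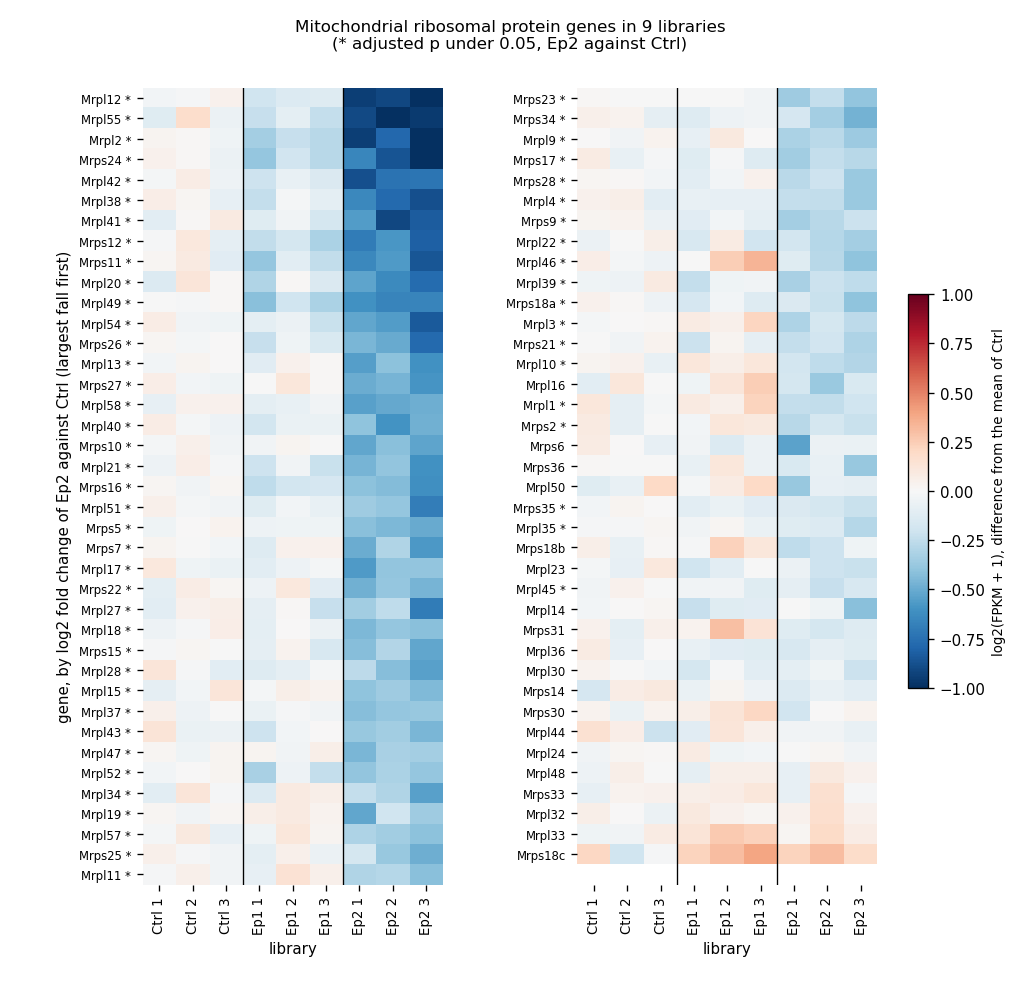
Difference of each library from the mean of the Ctrl libraries on log2(FPKM + 1), for the 77 tested members (rows, sorted by the log2 fold change of Ep2 against Ctrl) in 9 libraries (columns). The 3 Ep2 columns are blue for most genes, from -0.98 for Mrpl12 at the top left to 0.24 for Mrps18c at the bottom right, and the Ep1 columns are close to the Ctrl columns.

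The largest fall was that of Mrpl12 (chr11:120484613-120489065), the stalk protein of the large subunit to which the translation factors bind. Its FPKM was 82.5, 83.6 and 86.5 in Ctrl, 73.2, 76.4 and 76.7 in Ep1, and 43.4, 44.3 and 38.8 in Ep2. No library of any group overlapped with those of another, and the Ep2 mean was 50.1% of the Ctrl mean (log2 fold change of -0.98 ± 0.05 SE, adjusted p = 2.85e-06). Mrpl55 (chr11:59202486-59206134), another large-subunit protein, had 25.1, 31.0 and 26.3 FPKM in Ctrl, 23.1, 25.5 and 23.0 in Ep1, then 14.2, 12.9 and 13.6 in Ep2. Its Ep2 libraries were all below the other 6, whereas Ep1 and Ctrl overlapped (Ep2 against Ctrl, -0.96 ± 0.08 SE, adjusted p = 1.56e-05). Mrpl2 (chr17:46646229-46650139), a conserved protein near the site where peptide bonds are made, had 73.4, 72.4 and 69.6 FPKM in Ctrl, 56.6, 60.9 and 58.9 in Ep1, then 37.0, 41.3 and 33.1 in Ep2. The 3 groups were separate and in the order of the light dose, with a log2 fold change of -0.94 ± 0.07 SE in Ep2 (adjusted p = 1.09e-05).

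Large-subunit proteins without a bacterial counterpart were also among the members with the largest falls. Mrpl42 had 14.0, 15.1 and 13.8 FPKM in Ctrl, 12.2, 13.5 and 12.8 in Ep1, then 7.32, 8.14 and 8.23 in Ep2 (-0.78 ± 0.06 SE in Ep2, adjusted p = 1.11e-05). Mrpl38 had 46.8, 45.3 and 42.1 FPKM in Ctrl and 28.2, 25.6 and 23.9 in Ep2 (-0.77, adjusted p = 3.84e-05). Mrpl41 had 24.0, 26.0 and 27.6 FPKM in Ctrl and 17.2, 13.3 and 14.1 in Ep2 (-0.77, adjusted p = 0.000104). In these 3 genes, the Ep2 libraries stayed below all others. Mrpl49, Mrpl20 and Mrpl54 followed with -0.64 each, of which Mrpl20 has a bacterial counterpart. Altogether, 38 of the 50 tested large-subunit members (76.0%) fell in Ep2, against 29.3% of all tested genes, with a median of -0.36.

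In the small subunit, 20 of 26 tested members (76.9%) fell, against 29.3% of all tested genes, with a median of -0.33. Mrps24, which lies where the mRNA enters the ribosome, had 41.5, 40.5 and 38.5 FPKM in Ctrl, 30.5, 35.1 and 32.9 in Ep1, then 25.2, 21.7 and 19.6 in Ep2. Its groups did not overlap (-0.84 ± 0.08 SE in Ep2, adjusted p = 4.86e-05), although its gene model overlaps the expressed gene Urgcp, from which some of its reads could come. Mrps12, a part of the decoding centre, had 33.0, 35.9 and 31.2 FPKM in Ctrl, 28.0, 29.5 and 26.6 in Ep1, then 20.1, 21.9 and 18.5 in Ep2, again without overlap (-0.70 ± 0.07 SE, adjusted p = 5.27e-05). Mrps11 fell by 0.69 on the log2 scale (adjusted p = 0.000281). It starts head to head with the large-subunit gene Mrpl46 on chromosome 7, and their models overlap (Mrps11 from 78783119 to 78792989 and Mrpl46 from 78775236 to 78783531). Mrpl46 had 16.8, 15.8 and 15.4 FPKM in Ctrl, 16.0, 19.1 and 20.4 in Ep1, then 14.6, 13.0 and 11.8 in Ep2, which is a smaller fitted difference in Ep2 (-0.27 ± 0.09 SE, adjusted p = 0.0363). This call of Mrpl46 was lost without any 1 of the Ctrl libraries and without Ep2 library 2 or 3 (adjusted p of 0.0559 to 0.118).

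Further members with known roles fell by less. Mrpl58, a peptidyl-tRNA hydrolase that frees stalled ribosomes, had 11.7, 12.9 and 12.9 FPKM in Ctrl and 8.25, 8.45 and 8.60 in Ep2 (-0.51, adjusted p = 3.56e-05). Mrps7, in the head of the small subunit, fell by 0.46 (adjusted p = 0.000599), and its model overlaps the expressed genes Gga3 and Mif4gd. Mrps22 fell by 0.44 (adjusted p = 0.000608), Mrpl11, at the base of the stalk, by 0.33 (adjusted p = 0.00186), and Mrps34 by 0.33 (adjusted p = 0.00526). The model of Mrps34 overlaps the expressed gene Mapk8ip3. The smallest called differences were those of Mrpl45, which lies at the exit of the nascent peptide (43.5, 46.0 and 44.6 FPKM in Ctrl against 42.0, 38.05 and 39.9 in Ep2, -0.16, adjusted p = 0.0189), and of Mrpl35 and Mrps35 (-0.18 each). The call of Mrpl45 was lost after median centring (-0.11, adjusted p = 0.0787), after a length correction, and without Ctrl library 2 (adjusted p = 0.073) or Ep2 library 2 (adjusted p = 0.0702).

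**Figure D2:**
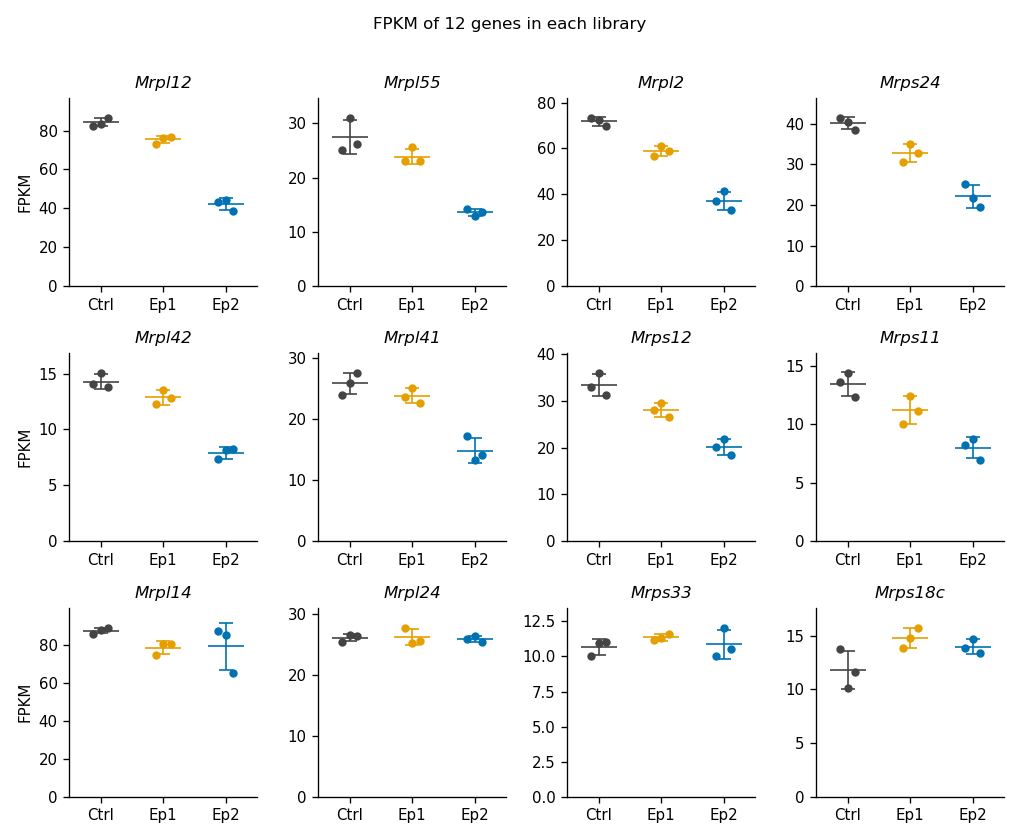
FPKM of 12 genes in each library (points), with the mean (bar) and SD (whiskers) of each group of 3. The first 8 genes fell in Ep2, with means from 49.4% (Mrpl55) to 59.4% (Mrps11) of Ctrl, while Mrpl14, Mrpl24, Mrps33 and Mrps18c did not pass the test.

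Evolutionary origin did not set the members apart by count. Of 46 tested proteins listed with a bacterial counterpart, 35 (76.1%) fell (median of -0.32). Of 30 listed as specific to mitochondria, 23 (76.7%) fell (median of -0.35). The difference between these medians was not tested, and 29.3% of all tested genes fell. Mrps18a and Mrps18b were listed as specific to mitochondria, although they are paralogues of Mrps18c, which was listed with a bacterial counterpart. Mrps36, which is not a ribosomal protein, had 15.5, 15.3 and 15.3 FPKM in Ctrl and 13.8, 14.6 and 11.6 in Ep2. All Ep2 libraries were lower, but the test was not passed (-0.20 ± 0.08 SE, adjusted p = 0.0589).

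The 19 members that did not pass the test in Ep2 held values on both sides of 0. Mrpl24, a large-subunit protein with a bacterial counterpart, had 25.4, 26.5 and 26.3 FPKM in Ctrl, 27.6, 25.2 and 25.5 in Ep1, then 25.9, 26.4 and 25.4 in Ep2 (log2 fold change of -0.01 ± 0.04 SE). Mrps33, a small-subunit protein specific to mitochondria, had 10.1, 10.9 and 11.1 FPKM in Ctrl, 11.2, 11.3 and 11.6 in Ep1, then 10.0, 12.02 and 10.6 in Ep2 (0.02 ± 0.07 SE). In both genes the Ctrl and Ep2 libraries overlapped. The model of Mrpl24 also overlaps the expressed gene Rrnad1. Mrpl32 (0.08), Mrpl33 (0.09) and Mrpl48 (0.02) also had fitted values above 0, and Mrps30 and Mrpl44, an RNase III-like protein, were at -0.05 each. The models of Mrpl33, Mrpl48 and Mrpl44 overlap the expressed genes Rbks, Rab6a and Wdfy1, in this order. Mrpl14, the member with the highest level, had 85.6, 87.8 and 88.6 FPKM in Ctrl, 74.4, 80.4 and 80.5 in Ep1, then 87.3, 84.8 and 65.0 in Ep2. Its Ep2 value was set by library 3, which stood below all other libraries (-0.15 with it and -0.02 without it). Without that library, Mrpl14 was the 1 member called higher in Ep2 than in Ep1 (0.13, adjusted p = 0.0482). Mrpl14 also overlaps the expressed gene Tmem63b.

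Mrps18a, Mrps18b and Mrps18c are paralogues of 1 ancestral protein and occupy 3 different places in the mitochondrial ribosome. Mrps18a, in the large subunit, had 17.7, 17.4 and 16.5 FPKM in Ctrl, 15.2, 16.9 and 15.6 in Ep1, then 15.4, 14.6 and 12.8 in Ep2, and it fell in Ep2 (-0.26 ± 0.07 SE, adjusted p = 0.0119). Mrps18b, in the small subunit, had 23.6, 21.4 and 22.8 FPKM in Ctrl, 22.3, 26.6 and 24.4 in Ep1, then 18.7, 19.4 and 21.9 in Ep2, so that the Ctrl and Ep2 libraries overlapped (-0.17, adjusted p = 0.0901). Mrps18c, which keeps the place of the bacterial protein, had 13.7, 10.1 and 11.6 FPKM in Ctrl, 13.8, 14.8 and 15.7 in Ep1, then 13.8, 14.8 and 13.4 in Ep2. It had the highest fitted value of all members (0.24 ± 0.09 SE, adjusted p = 0.0586), with Ctrl library 1 within the range of Ep2. The adjusted p of Mrps18c passed the threshold after median centring (0.0274), a stricter filter (0.0423), a length correction (0.0357), voom on fragments (0.0494) and without Ctrl library 1 (0.00713), and it lay at 0.203 without Ctrl library 2. The differences between the paralogues were not tested.

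The low dose was compared with the control group next. Only 2 members passed the test in Ep1, both lower, while 4.97% of all tested genes fell and 6.32% rose. No member passed with a fold change of 0.6 in either direction, which 0.222% of tested genes did downwards and 0.571% upwards. At an unadjusted p under 0.05, 12 members (15.6%) differed, against 29.5% of all tested genes. Mrpl49 had 30.1, 29.9 and 30.5 FPKM in Ctrl and 22.4, 26.2 and 24.0 in Ep1 (log2 fold change of -0.31 ± 0.05 SE, adjusted p = 0.0121), without overlap of the groups. Its model overlaps the expressed gene Syvn1. The second member was Mrpl2, with the values given above (-0.28 ± 0.07 SE, adjusted p = 0.0353). The median over the members was -0.06, against -0.01 over all tested genes, and the Ep1 libraries lay below all Ctrl libraries in 14 members, or 18.2% of them, against 20.5% of all tested genes, and above them in 7, against 20.8%. These calls were fragile. The adjusted p of both genes was over the threshold without Ctrl library 2 (Mrpl49, 0.0542, and Mrpl2, 0.123) or Ep1 library 3 (0.054 and 0.105). Mrpl2 lost its call without any 1 of the 6 compared libraries (adjusted p from 0.0563 to 0.123) and without a filter on low values (0.107). The count was 1 without Ctrl library 3 or Ep1 library 1, 4 without Ep2 library 1 and 7 without Ep2 library 3. Voom on fragments gave 8 lower members. Mrps18c, whose Ep1 libraries were all above Ctrl (0.31, adjusted p = 0.0636), was called higher in Ep1 with a stricter filter (adjusted p = 0.0417) and without Ctrl library 1 (0.0364).

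Between the doses, 54 of 77 members were lower in Ep2 than in Ep1 and none was higher, 6 of them past a fold change of 0.6, with a median of -0.33. Of all tested genes, 25.2% were lower and 18.8% higher, with 3.97% lower and 1.94% higher past that fold change and a median of -0.01. The Ep2 libraries were all below the Ep1 libraries in 58 members (75.3%), against 30.3% of tested genes, and all above them in none, against 24.1%. Of all genes called in this comparison, 42.8% were higher, which turned to 55.5% after median centring, under which 48 members were lower and none higher. Mrpl12 again had the largest difference (-0.83 ± 0.05 SE, adjusted p = 7.68e-06), followed by Mrpl55 (-0.77), Mrpl2 (-0.66), Mrpl41 (-0.65), Mrpl38 (-0.65) and Mrpl42 (-0.64). Of the 58 members that were lower in Ep2 than in Ctrl, 51 (87.9%) were also lower than in Ep1, as were 73.0% of all tested genes that were lower in Ep2 than in Ctrl. The comparisons share the Ep2 libraries, and the difference between these shares was not tested. The order Ctrl, Ep1, Ep2 from high to low held for the means of 51 members (66.2%), against 27.9% of all tested genes, and Ep2 had the lowest mean in 71 (92.2%), against 43.9%. Mrps31 (0.16 in Ep1 and -0.14 in Ep2, both against Ctrl) and Mrps18b (0.11 and -0.17) were called only between the doses, together with Mrpl16 (0.11 and -0.23, with adjusted p = 0.0502 for Ep2 against Ctrl). Of these, Mrps18b lost its call without Ep1 library 2 (adjusted p = 0.0596).

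Summed over the members, the fragments made up 0.397%, 0.394% and 0.395% of all fragments on genes in Ctrl, 0.359%, 0.389% and 0.377% in Ep1, and 0.307%, 0.312% and 0.290% in Ep2. The Ep2 libraries were below all others, and all 3 Ep1 libraries were under Ctrl, with Ep1 library 2 the nearest to it. Summed FPKM came to 1911 ± 12.7 for the Ctrl libraries, 1809 ± 76.6 at the low dose and 1432 ± 69.9 at the high dose (mean and SD of 3 libraries). Ep2 library 3, the lowest of all, was also the one with the fewest fragments in total (16240688). With 3 libraries against 3, an exact permutation test of such a sum could not go below p = 0.10, and none was run.

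The size of the difference varied with the level of the gene. With the members ordered by their level in Ctrl and cut into 4 bins, the 20 genes with the lowest levels had a median of -0.24 on the log2 scale in Ep2. The next bins of 19 genes each had medians of -0.33, -0.41 and, at the highest levels, -0.39. Across the 77 genes, the correlation of log2(FPKM + 1) in Ctrl with the log2 fold change was -0.43 (Pearson) and -0.36 (Spearman). This is a description across genes of the same libraries, which share their depth and are not independent, the Ctrl level enters both measures, and the pseudocount shrinks the fold change of low genes. Over all tested genes the Pearson value was -0.20. The gene models of the members were short (median of 2255 bases, against 3916 over all tested genes), and the correlation of log2 length with the fold change was 0.20 (Pearson). Level and length are linked, as FPKM is divided by the length of the model. Mrpl48, with the lowest level in Ctrl, had a model of 8152 bases, and Mrpl14, with the highest, one of 949 bases. The bins by level may thus also differ in length, and level was not tested apart from length.

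**Figure D3:**
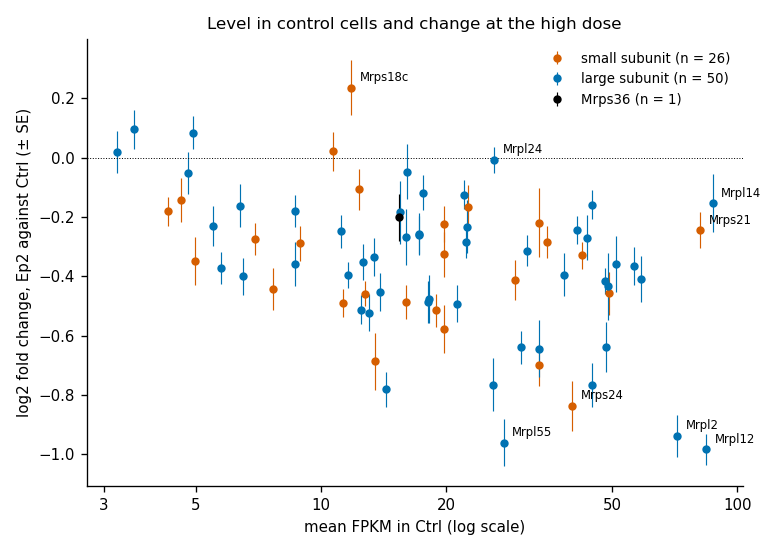
Mean FPKM in Ctrl (log axis) against the log2 fold change of Ep2 against Ctrl (points, with SE as whiskers) for the 77 tested members, with colours for the subunit. Mrpl12 and Mrpl2 combine a high level with a large fall, while Mrpl14, the gene with the highest level (87.3 FPKM), stays near 0 (-0.15).

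Other large protein assemblies were set beside the mitochondrial ribosome. Of 83 tested proteins of the cytosolic ribosome, 42 (50.6%) fell and 3 (3.61%) rose in Ep2 (median of -0.18). Of 36 nuclear subunits of complex I, the entry enzyme of the respiratory chain, 25 (69.4%) fell and none rose (median of -0.32). Over all tested genes, 29.3% fell and 23.9% rose in Ep2. In Ep1, 13 cytosolic ribosomal proteins (15.7%) fell and 2 (2.41%) rose (median of -0.11). Of the complex I subunits, 7 (19.4%) fell in Ep1 and none rose (median of -0.16), while 2 members (2.60%) fell. The shares over all tested genes were 4.97% lower and 6.32% higher. Between the doses, 18 cytosolic ribosomal proteins (21.7%) were lower and 5 (6.02%) higher (median of -0.06). Both shares are under those of all tested genes (25.2% and 18.8%). Of the complex I subunits, 14 (38.9%) were lower and 2 (5.56%) higher (median of -0.17), and 54 members (70.1%) were lower. The shares of the members take in Mrps36, which is not a ribosomal protein. These counts describe the lists side by side, and the differences between the lists were not tested.

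**Figure D4:**
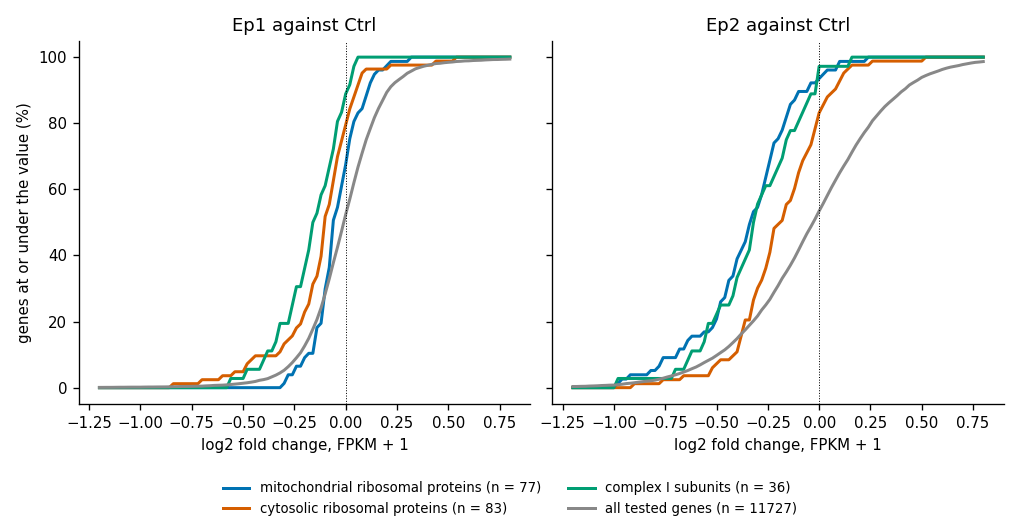
Share of genes (%) at or under each log2 fold change of FPKM + 1, in Ep1 (left) and Ep2 (right) against Ctrl. Curves are for the 77 tested members (labelled mitochondrial ribosomal proteins, Mrps36 included), 83 cytosolic ribosomal proteins, 36 complex I subunits and 11727 tested genes. In Ep2 the curve of the members lies near that of complex I (medians of -0.33 and -0.32) and left of all genes, while in Ep1 its median was -0.06.

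Some proteins of the mitochondrial ribosome carry other names and were taken as a list of 5. Dap3, a small-subunit protein first known from cell death screens, was 19.3, 19.5 and 19.5 FPKM in Ctrl, 20.1, 20.8 and 19.9 in Ep1, then 22.3, 23.2 and 21.6 in Ep2. It rose in Ep2 (0.19 ± 0.04 SE, adjusted p = 0.00326), against the direction of the members. Ptcd3 (-0.26, adjusted p = 0.00357), Aurkaip1 (-0.21, adjusted p = 0.00975) and Gadd45gip1 (-0.48, adjusted p = 0.00613) fell, and Chchd1 was at -0.15 (adjusted p = 0.0698).

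Among 25 tested factors that build the mitochondrial ribosome, 13 (52.0%) fell and 2 (8.0%) rose in Ep2, with a median of -0.21. Over all tested genes, 29.3% fell and 23.9% rose. Mpv17l2, an inner membrane protein needed for subunit joining, had 17.3, 15.9 and 15.4 FPKM in Ctrl and 9.33, 9.78 and 7.61 in Ep2 (-0.80, adjusted p = 0.000122). Mrm3, a methyltransferase of the large ribosomal RNA, fell by 0.62 (adjusted p = 0.000162), and Dhx30, an RNA helicase, by 0.35 (adjusted p = 0.00021). Mterf3, which acts in the assembly of the large subunit, rose from 3.75, 3.62 and 3.18 FPKM in Ctrl to 4.83, 5.48 and 5.43 in Ep2 (0.47, adjusted p = 0.000362), and the methyltransferase Mrm1 by 0.23 (adjusted p = 0.0209). In Ep1, 2 factors fell (Mrm2 and Mterf4), which is 8.0% of the 25, against 4.97% of all tested genes.

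Of 15 tested genes listed as factors of mitochondrial translation, 10 (66.7%) fell in Ep2 and 2 (13.3%) rose, with a median of -0.28. The shares over all tested genes were 29.3% and 23.9%. Tufm, the elongation factor that brings tRNAs to the ribosome, had 50.8, 55.2 and 48.2 FPKM in Ctrl, 43.2, 47.0 and 40.8 in Ep1, then 32.7, 27.6 and 27.4 in Ep2, without overlap of the groups (-0.80 in Ep2, adjusted p = 4.89e-05). Its exchange factor Tsfm fell by 0.37 (adjusted p = 0.000687), and the translocase Gfm1 by 0.33 (adjusted p = 0.000289). The initiation factor Mtif2 (0.16, adjusted p = 0.0326) and Mss51 (0.30, adjusted p = 0.0388) rose. In Ep1, Oxa1l, the insertase of the inner membrane (-0.18, adjusted p = 0.035), and the formyltransferase Mtfmt (-0.26, adjusted p = 0.0358) fell. They are 13.3% of the list, against 4.97% of all tested genes. Mss51 rose in Ep1 (6.67% of the list, against 6.32%). Between the doses, the initiation factor Mtif3 had the smallest adjusted p among factors with a value above 0 (0.18, adjusted p = 0.0836).

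Of 14 tested genes for mitochondrial transcription and RNA maturation, 5 fell in Ep2 (35.7%, against 29.3% of all tested genes) and none rose. Polrmt, the RNA polymerase of mitochondria, had 8.86, 8.49 and 6.79 FPKM in Ctrl and 4.78, 4.87 and 4.97 in Ep2 (-0.62, adjusted p = 0.000271), and Tfam, which packs and transcribes mitochondrial DNA, fell by 0.22 (adjusted p = 0.00337). The genes with the smallest adjusted p among those above 0 were Tfb2m, a transcription factor of mitochondria, in Ep1 (0.17, adjusted p = 0.0922) and Mterf2 in Ep2 against Ctrl (0.08, adjusted p = 0.564) and against Ep1 (0.33, adjusted p = 0.0374). Among 11 tested nuclear regulators of mitochondrial genes, 3 fell (27.3%) and 2 rose (18.2%) in Ep2, shares at or under those of all tested genes (29.3% and 23.9%). Nrf1 had 5.20, 5.21 and 4.92 FPKM in Ctrl, 5.40, 5.80 and 5.16 in Ep1, then 3.52, 3.87 and 3.85 in Ep2 (-0.36, adjusted p = 0.000603). Esrra (-0.60, adjusted p = 0.000985) and the coactivator Ppargc1b (-0.56, adjusted p = 0.000304) also fell, whereas Myc (0.69, adjusted p = 8.58e-05) and Gabpa (0.18, adjusted p = 0.0161) rose. Pprc1 was at -0.06 and Yy1 at 0.08, neither past the threshold, and Ppargc1a was under the filter (mean of 0.0370 FPKM in Ctrl). In Ep1, Gabpa (0.31), Gabpb1 (0.30) and Sp1 (0.26) rose, which is 27.3% of the 11 genes, against 6.32% of all tested genes. Esrra (-0.40) and Ppargc1b (-0.36) fell in Ep1 (18.2%, against 4.97%).

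**Figure D5:**
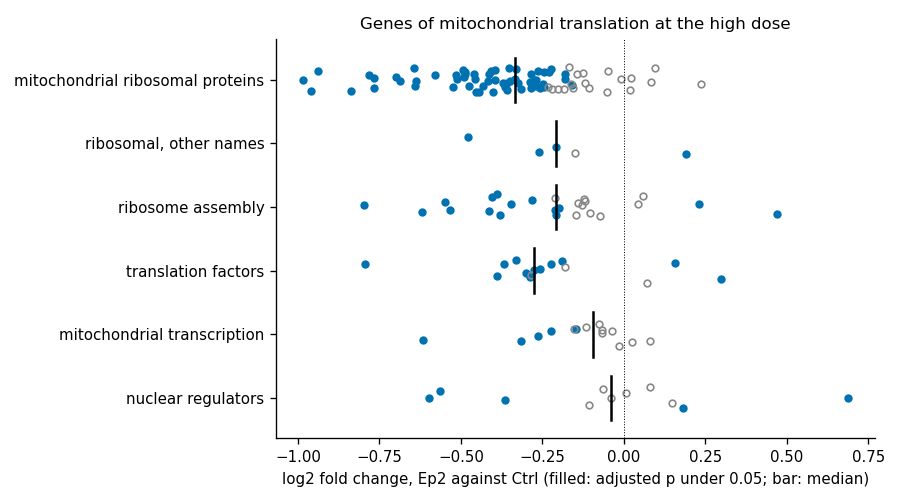
Log2 fold change of Ep2 against Ctrl for the 77 tested members and 5 lists of genes that act with them (points, filled where the adjusted p was under 0.05), with the median of each list as a bar. The medians run from -0.33 for the members to -0.04 for the nuclear regulators.

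The promoter windows of 69 members were found in the RefSeq table (GRCm38.p6, 250 bases before to 50 after the start, 75 windows). They were searched on both strands for short letter runs, and a gene counted once over its windows. The NRF1 form CGCATGCG was found in 7 members (10.1%), among them Mrpl10, Mrpl17 and Mrps18b, against 4.76% of 8342 tested genes with a window and 1.87% of all 32851 windows. The loose form CGCNTGCG, which takes in the former, was found in 20 members (29.0%), against 20.9% of tested genes and 8.21% of windows. CCGGAAGT, the core of ETS factors such as GABPA, was found in 12 members (17.4%), among them Mrpl18 and Mrps22, against 10.2% of tested genes and 3.89% of windows. AAGATGGC, the core of YY1, was found in 12 members (17.4%), among them Mrps12, Mrps24 and Mrpl42, against 5.77% of tested genes and 2.75% of windows. The E-box CACGTG was found in 5 members (7.25%), against 12.2% of tested genes and 7.15% of windows, and TATAAA in 5 members (7.25%), against 8.33% and 13.6%.

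The letters were found in members that fell and in members that did not. Of the tested members with CGCATGCG, 5 of 7 fell in Ep2 (median of -0.26), and of those without it 44 of 61 (median of -0.35). With AAGATGGC, 10 of 12 fell (median of -0.49), and without it 39 of 56 (median of -0.30). With CCGGAAGT, 9 of 12 fell (median of -0.41), and without it 40 of 56 (median of -0.30). With CGCNTGCG, 15 of 20 fell (median of -0.27), and without it 34 of 48 (median of -0.35). With CACGTG, 3 of 5 fell (median of -0.40), and without it 46 of 63 (median of -0.33). With TATAAA, 3 of 5 fell (median of -0.27), and without it 46 of 63 (median of -0.35). The differences with and without the letters were not tested, and 29.3% of all tested genes fell. As single examples, Mrpl32 (0.08, not past the threshold) holds both CGCATGCG and AAGATGGC, and Mrpl55 (-0.96) holds none of the letter runs. A match is a description of the letters in these windows and says nothing of binding.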

How the data were processed

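Each library was deposited as FPKM values of 54532 genes, made by the authors from reads aligned to the mouse genome, and 9 single-library tables equal the joint table. The submitters' processing notes list mm8 and Bowtie 0.12.2, and the methods name GRCm39, whereas the listed coordinates overlap GRCm38 positions for 99.9% of 36526 genes compared (12.4% for GRCm39). The counting tool and its use of strand were not given in the sources used here. The growth protocol calls the cells rat, while the organism label is mouse. FPKM multiplied by gene length came out whole (within 0.05) for all values and gave the fragments behind them, at least 208 for any tested member in any library.

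Values were tested as log2(FPKM + 1) for the 11727 genes that reached 1 FPKM in 3 or more libraries, by limma 3.58.1 in R 4.3.3 (lmFit, eBayes with trend and robust estimation, all 9 libraries, no covariate), with Benjamini-Hochberg adjustment over all tested genes within each comparison. Calls had an adjusted p under 0.05, and an absolute log2 fold change above 0.6 where stated. The fits were tested on simulated data. Named are the 6 members with the largest called rise and fall per comparison whose libraries do not overlap, the 3 highest and lowest in Ctrl, fixed members of known role, members under the filter, and in each neighbouring list the genes with the smallest adjusted p and fixed regulators. Other members with a value were chosen after their values were seen. The members, lists and tests were chosen with earlier results of these data known. Alternatives were median centring, other filters, a pseudocount of 0.1, a replicate block, only the groups compared, voom on fragments, a length correction and leaving out each library.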

Additional observations from a re-analysis of the deposited data

How the results depend on the processing

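In Ep2 against Ctrl, between 56 and 60 members passed under every alternative but the minimum fold change (12) and the omission of the 20 members that overlap an expressed gene (45 of 57, chosen after seeing the data), and 54 of the 58 were called under each setting that tested them, the minimum fold change aside, with Mrpl1, Mrpl35, Mrpl45 and Mrpl46 as the exceptions. The counts of members in this section take in both directions. In Ep2 against Ctrl, median centring gave 55 lower and 1 higher, and the stricter filter 59 lower and 1 higher of 72 tested. When 1 library was left out, the count ranged from 56 to 59 and the median from -0.36 to -0.30. The median was -0.29 after median centring. In Ep2 against Ep1, 47 of 54 calls held under each setting that tested them (not Mrpl27, Mrpl35, Mrpl4, Mrps17, Mrps18b, Mrps34 and Mrps9), 6 members passed the minimum fold change, the median was -0.27 after median centring, and leaving out 1 library gave 48 to 55 members and medians of -0.36 to -0.29, the last without Ep1 library 2. In Ep1 against Ctrl, neither of the 2 calls held throughout. The count was 1 without a filter, 7 with a stricter filter (6 lower and Mrps18c higher), 7 with only the groups compared, 8 with voom, 0 with the minimum fold change, 1 without members that overlap an expressed gene, and 0 to 7 without 1 library, with medians of -0.07 to -0.04. With the replicate block, 3, 59 and 56 members passed in the 3 comparisons. Deviations from the group means correlated at -0.056 to 0.074 between libraries of the same number in different groups. Those of libraries with different numbers correlated at -0.11 to 0.15. With 3 libraries a group, these values cannot decide whether the numbers pair the libraries. Mrpl14 turned to 0.13 in Ep2 against Ep1 without Ep2 library 3 (adjusted p = 0.0482), with values from -0.077 to 0.13 over the omissions. Among named genes that were not past the threshold, the sign differed in 30, 8 and 9 of the alternatives in the 3 comparisons without a call. Apart from these settings and the omissions, the cause was not tested. With 3 libraries a group, the number of libraries limits the precision.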

Other observations

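The RNA partners of these proteins are transcribed in the mitochondria and were taken as lists after seeing the data. The small ribosomal RNA mt-Rnr1 had 205, 224 and 250 FPKM in Ctrl, 279, 278 and 262 in Ep1, and 272, 301 and 299 in Ep2. It was higher in both treated groups (log2 fold change of 0.27 in Ep1, adjusted p = 0.0417, and 0.36 in Ep2, adjusted p = 0.0023). The large ribosomal RNA mt-Rnr2 had 365, 370 and 420 FPKM in Ctrl and 254, 394 and 413 in Ep2, with Ep2 library 1 below all others (-0.15, adjusted p = 0.488). This ribosome makes the products of the 13 mitochondrial mRNAs. Of these mRNAs, 4 were higher in Ep2 than in Ctrl (30.8%, against 23.9% of all tested genes) and none lower (against 29.3%), with a median of 0.05. Among the 4 were mt-Nd6 (0.67, adjusted p = 2.97e-05) and mt-Co1 (0.39, adjusted p = 0.000857). In Ep1, 1 was higher than in Ctrl (7.69%, against 6.32% of all tested genes) and none lower (against 4.97%). Between the doses, 3 were higher in Ep2 (23.1%, against 18.8%) and 1 lower (7.69%, against 25.2%), and the lowest value was -1.11. The levels of these RNAs depend on the way the libraries were selected, which was not given in the sources used here.

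Pseudogene copies of members were nearly silent. Mrpl48, Mrpl23 and Mrps36 have 5 such rows, with 0 to 22 fragments in any library.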
